A study of Homo sapiens with 3 samples.

Results

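The outer 10 Mb of the short arm of chromosome 12 (called the 12p end here) and the short arm of chromosome 18 up to position 14400000 (18p) were chosen by the local background of their peaks, as stretches where Spindlin1 and C11orf84 peaks stood on a higher background in U2OS cells than elsewhere. U2OS is a human osteosarcoma line whose chromosomes are known to be heavily rearranged. All peaks of both lists with their summit at or below these positions in the genome build hg19 were taken, which gave 5509 of the 331107 peaks in the series. The 12p end held 1661 Spindlin1 and 1747 C11orf84 peaks, and 18p held 993 and 1108. The remainder of chromosome 12, with 5638 Spindlin1 and 6500 C11orf84 peaks, and of chromosome 18, with 1907 and 2242, served for comparison.

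The series is a chromatin immunoprecipitation followed by sequencing (ChIP-seq) of untreated, formaldehyde-fixed U2OS cells, with 1 Spindlin1 library, 1 C11orf84 library and 1 Input library made without antibody, whose file was not used here. The growth and fixation given in the labels are the same for all 3. Each antibody thus has a single library, and none of the differences below could be checked on replicates or given a p-value. Intervals are exact 95% intervals of a number or a share. Only counting error enters them, and peaks are treated as independent, which neighbours are not, so the true uncertainty is wider.

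Spindlin1 is a chromatin reader whose Tudor-like domains hold the methylated tail of histone H3, and it is known as a co-activator of ribosomal RNA genes and of Wnt target genes. C11orf84, also called SPINDOC, is a protein that binds Spindlin1. The 12p end carries genes such as CCND2, which encodes the cell cycle regulator cyclin D2, KDM5A, a histone H3 lysine demethylase, FOXM1, a transcription factor of dividing cells, and GAPDH, a glycolytic enzyme. The short arm of chromosome 18 carries TYMS, the thymidylate synthase gene, YES1, a tyrosine kinase gene, and SMCHD1, which encodes a protein of the silent X chromosome. These genes are named as background, since no gene annotation of hg19 was used and no peak below was assigned to a gene.

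The fold that the authors deposited for each peak is its summit against a local background, and from the fold and the −log10 p-value the number of fragments at the summit (summit depth) and the background were recovered. Each list has a lowest background, the floor, equal to 0.949 fragments (Spindlin1) and 1.04 fragments (C11orf84). Backgrounds above it were whole numbers of reads of a control, taken here as the Input, which is an inference, in a window of 1 fragment length, 1 kb or 10 kb. The floor corresponded to 101.9 such reads per 10 kb in both lists. Peaks whose background reaches 2 times the floor are called raised.

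Background was the measure that chose the stretches, so its values there are a description. For Spindlin1 peaks of the 12p end, background had a median of 1.42 times the floor (quartiles 1.14 to 1.77) and for C11orf84 peaks 1.47 (1.14 to 1.87), against 1.00 in both lists on the rest of chromosome 12. On 18p it was 1.57 times the floor for Spindlin1 (1.14 to 2.02) and 1.51 for C11orf84 (1.09 to 1.98), against 1.08 and 1.07 on the rest of chromosome 18. Raised background was found at 328 Spindlin1 peaks of the 12p end (19.7%) and 254 of 18p (25.6%), where the whole list without chromosome Y had 9.07%. For C11orf84 these were 382 (21.9%) and 274 (24.7%), where the whole list had 9.19%. Peaks at the floor made up 12.1% of the Spindlin1 and 10.9% of the C11orf84 peaks in the 12p end and 16.9% and 18.4% on 18p. Over the whole lists they made up 48.2% and 49.3%.

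The label of raised ends holds for parts of the stretches only. Along the 12p end, the windows from 0 to 2 Mb had median backgrounds of 1.14 times the floor for Spindlin1 and 1.09 and 1.14 for C11orf84. The 5 windows from 2 to 7 Mb lay between 1.47 and 1.67 for Spindlin1 and between 1.48 and 1.64 for C11orf84, and the windows from 7 to 10 Mb between 1.14 and 1.33 and between 1.10 and 1.45. The limit at 10 Mb does not end the raised background. In the 1 Mb just inside it the median was 1.33 times the floor over 42 Spindlin1 peaks and 1.45 over 52 C11orf84 peaks, and in the 1 Mb just outside it was 1.88 over 31 and 1.87 over 27. The last Spindlin1 peak inside (9999908 to 10000080) had 1.03 times the floor and a fold of 4.04 at 7 fragments, and the first outside (10001667 to 10001840) stood at the floor with 5.13 at 9 fragments. Up to 14 Mb the windows stayed between 1.46 and 1.94 for Spindlin1 and between 1.67 and 1.91 for C11orf84.

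On 18p the background fell into 3 blocks. From 0 to 4 Mb the median was 2.11 times the floor for Spindlin1 (quartiles 1.71 to 2.56, 213 peaks) and 2.10 for C11orf84 (1.64 to 2.66, 223 peaks), and 56.3% and 55.6% of peaks were raised. From 4 to 12 Mb it was 1.14 (1.00 to 1.5, 344 peaks) and 1.09 (1.00 to 1.47, 432 peaks), near that of the rest of the chromosome, and 9.30% and 6.48% of peaks were raised. From 12 Mb to the limit, called the inner block, it was 1.63 (1.28 to 1.96, 436 peaks) and 1.64 (1.30 to 2.06, 453 peaks), with 23.4% and 26.9% raised. The window from 3 to 4 Mb had the highest median of the arm, 2.37 times the floor for Spindlin1 and 2.38 for C11orf84, and it ranked 8 among the 1289 windows of the genome with at least 20 Spindlin1 peaks and 8 among the 1368 with at least 20 C11orf84 peaks. Within the 1 Mb below position 14400000 the median was 1.71 and 1.67 times the floor, and in the 1 Mb above it 1.00 in both lists, with 32 Spindlin1 and 26 C11orf84 peaks. The last Spindlin1 peak inside (14357969 to 14358154) and the first outside (14431141 to 14431327) were both at the floor, with folds of 6.16 and 5.64.

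**Figure D1:**
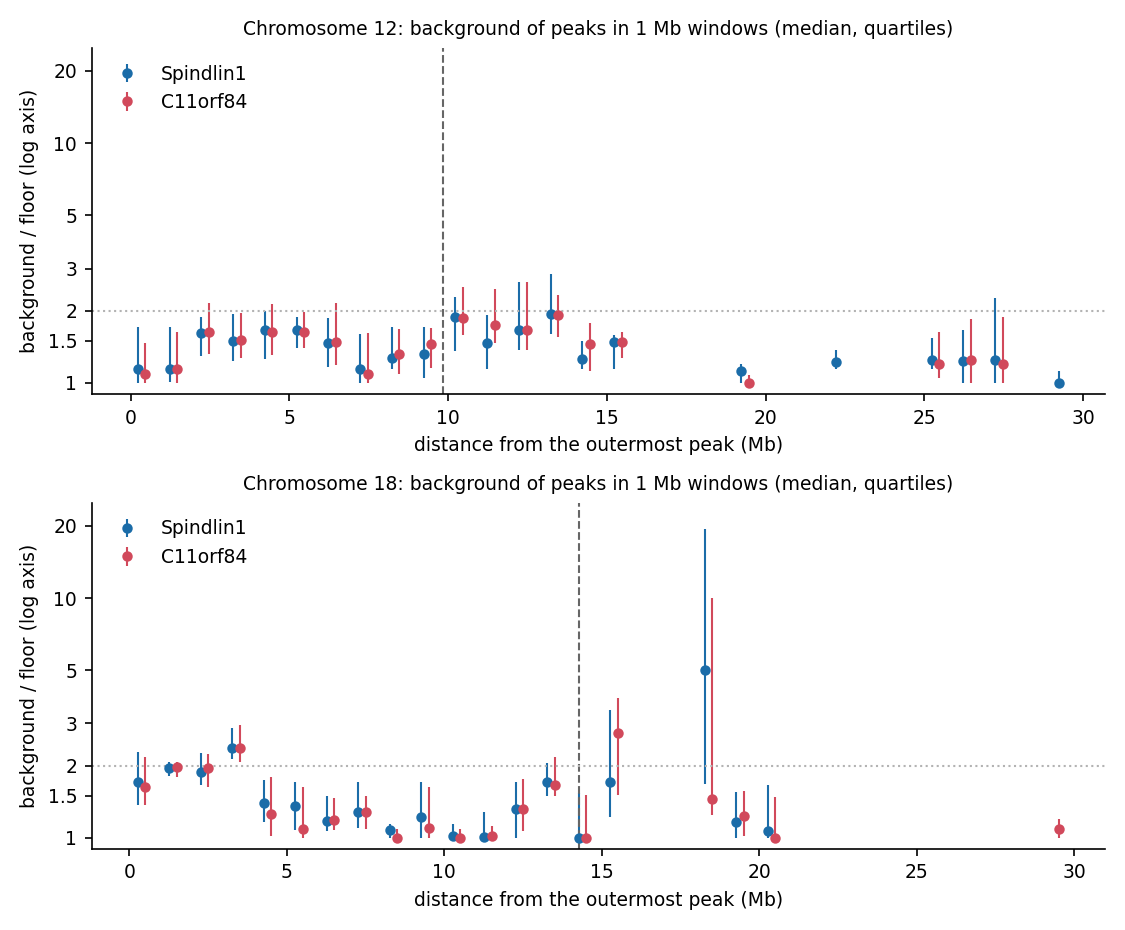
Background of peaks, as a multiple of the floor on a log axis, in 1 Mb windows with at least 10 peaks along the first 30 Mb of chromosomes 12 and 18, plotted against distance from the outermost peak. Points are medians and bars quartiles over peaks, the dashed line is the limit of the stretch and the dotted line is 2 times the floor; the highest medians inside the limits are those of the 3 to 4 Mb window of 18p, 2.37 for Spindlin1 and 2.38 for C11orf84.

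The recovered backgrounds of the lists were close where both were set by the 10 kb window at nearly the same place. With the same control taken for both lists, this closeness follows from how background is set and is not a separate finding in each list. Pairs of overlapping peaks with summits at most 20 bp apart and a background set by the 10 kb window numbered 112 in the 12p end and 69 on 18p. The recovered control reads per 10 kb were the same number in 83 and 50 of these pairs, and they differed by at most 2 reads in the others. These are a small part of all pairs of largest overlap, 1201 in the 12p end and 636 on 18p, and shorter windows could differ more. At chromosome 12 (2045926 to 2046198), for example, Spindlin1 stood on 1.71 times the floor and C11orf84 on 2.18 times. Where the 10 kb window set the background, the median was 202 reads over 97 Spindlin1 peaks and 196 over 105 C11orf84 peaks in the 0 to 4 Mb block of 18p. In the 2 to 7 Mb block of 12p it was 142 and 141 reads, and in the inner block of 18p 156 and 155. On the rest of chromosome 12 it was 122 and 119 reads, and on the rest of chromosome 18 it was 121.5 and 118. These medians leave out every peak at the floor, so they lie above 101.9 reads by construction. Extra DNA copies in U2OS and other causes of high control coverage cannot be told apart in these lists.

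The outermost peaks of 18p had the highest backgrounds and the deepest summits of the stretch. Between 106793 and 111431, 7 Spindlin1 peaks lay on backgrounds from 4.24 to 37.7 times the floor, and 7 C11orf84 peaks overlapped them on backgrounds from 4.24 to 40.4 times the floor. The deepest summit of both lists in the stretch was there, with 154 fragments for Spindlin1 at chromosome 18 (108014 to 108609) and 147 for C11orf84 (107994 to 108607), at folds of only 4.22 and 3.45. Next in both lists was the neighbouring peak, with 92 fragments for Spindlin1 (108698 to 109907) and 87 for C11orf84 (108724 to 109910). At these peaks binding and reads of repeats that the assembly holds as fewer copies cannot be told apart. Without the outermost 250 kb, which hold 8 Spindlin1 and 10 C11orf84 peaks, the medians over 18p were 5.78 and 5.85 in fold and 13 and 14 fragments in depth, as with them. The tip of 12p showed nothing of the kind, with a median background at the floor over 27 Spindlin1 and 25 C11orf84 peaks and a highest value of 2.28 and 2.18.

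Peaks of both proteins were more closely packed in the 12p end than on the rest of the chromosome. There were 166 Spindlin1 peaks per Mb in the 12p end (interval 158 to 174) and 48.8 on the rest of chromosome 12 (47.5 to 50.1), a ratio of 3.40. For C11orf84 there were 175 per Mb (167 to 183) and 56.2 (54.9 to 57.6), a ratio of 3.11. Among peaks with a −log10 q of at least 10 the ratios were larger, 9.73 and 8.11. The last 10 Mb of the long arm of chromosome 12 were denser still in all peaks, with 186 and 216 per Mb, yet their median background was at the floor in both lists. In the 12p end 389 Spindlin1 peaks passed that limit (23.4%, 21.4 to 25.5), and in the opposite end 164 did (8.83%, 7.58 to 10.2), where the whole list had 11.8%. For C11orf84 it was 566 (32.4%, 30.2 to 34.6) in the 12p end and 286 (13.3%, 11.9 to 14.8) in the opposite end, where the whole list had 15.7%.

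On 18p the densities were 69.0 Spindlin1 peaks per Mb (64.7 to 73.4) and 76.9 C11orf84 peaks (72.5 to 81.6), against 41.3 (39.4 to 43.2) and 48.5 (46.5 to 50.6) on the rest of chromosome 18. The ratios were 1.67 and 1.59, over lengths without peak-free stretches of 1 Mb or more. The opposite end of chromosome 18, a stretch of the same length, had 112 and 125 peaks per Mb. The crowding on 18p lay away from the tip. The inner block had 182 Spindlin1 and 189 C11orf84 peaks per Mb, against 53.2 and 55.8 from 0 to 4 Mb and 43 and 54 from 4 to 12 Mb. The fullest window of 18p was that from 13 to 14 Mb, with 267 Spindlin1 and 278 C11orf84 peaks, and the fullest of the 12p end was that from 3 to 4 Mb, with 371 in each list. High background and high density therefore did not go together in every block of 18p.

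**Figure D2:**
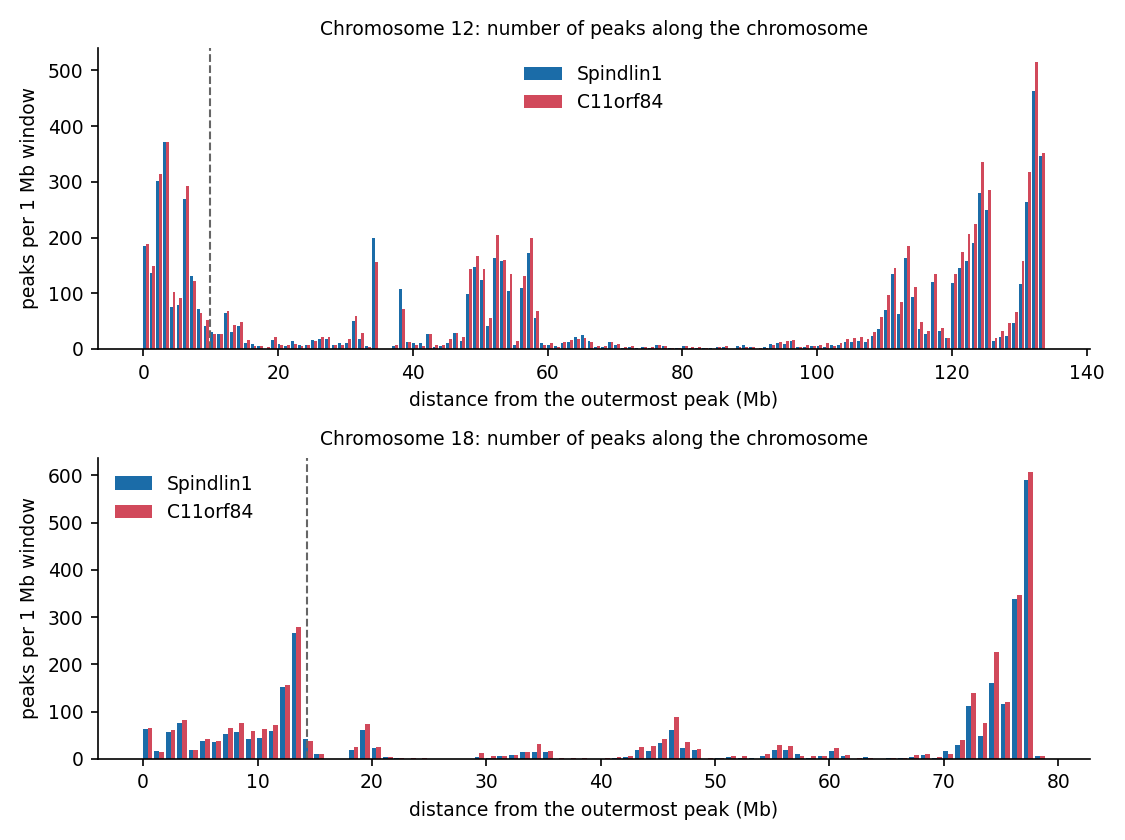
Number of peaks in each 1 Mb window along the whole of chromosomes 12 and 18, against distance from the outermost peak, with bars for Spindlin1 and C11orf84 side by side and a dashed line at the limit of the stretch. The fullest windows inside the limits hold 371 peaks of each list on 12p and 267 Spindlin1 and 278 C11orf84 peaks on 18p, and the opposite ends hold fuller ones.

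The lists were closer in size in these stretches, each taken as a whole, than on the rest of the same chromosomes. The number of Spindlin1 peaks was 0.951 of that of C11orf84 peaks in the 12p end and 0.867 on the rest of chromosome 12. On 18p it was 0.896 and on the rest of chromosome 18 it was 0.851. The opposite end of chromosome 18 held 1433 Spindlin1 and 1598 C11orf84 peaks, about the same proportion as 18p. That of chromosome 12 held 1857 and 2156, a proportion near that of the rest. Within 18p the block from 4 to 12 Mb held 344 and 432, further apart than on the rest of chromosome 18. Peaks of C11orf84 covered more bases in both stretches, 5.85% of the 12p end and 2.29% of 18p, against 4.92% and 1.88% for Spindlin1.

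Summits were deeper in the raised blocks. The median summit depth was 14 fragments for Spindlin1 in the 12p end and 11 on the rest of chromosome 12, and 15 and 12 for C11orf84. On 18p the Spindlin1 and C11orf84 medians were 13 and 14 fragments, against 12 and 13 on the rest of chromosome 18. The opposite end of chromosome 18 had 13 fragments in both lists, at median backgrounds of only 1.10 and 1.08 times the floor. Depth over 18p as a whole was thus not particular to it for Spindlin1. The opposite end of chromosome 12 had 11 and 12 fragments. By block, Spindlin1 and C11orf84 summits had medians of 15 and 16 fragments from 2 to 7 Mb of 12p, 16 and 17 from 0 to 4 Mb of 18p and 15 and 16 in the inner block of 18p. They had 12 fragments in both lists from 4 to 12 Mb of 18p. Summits of at least 20 fragments made up 13.1% of Spindlin1 peaks in the 12p end and 13.8% on 18p, where the whole list had 4.43%, and 21.6% and 18.3% of C11orf84 peaks, where the whole list had 6.13%.

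Among peaks at the floor, where all peaks of a list are set against 1 background, depth was about the same inside and outside the stretches. The Spindlin1 median was 11 fragments in the 12p end, on 18p and on the rest of both chromosomes. The C11orf84 median was 12 in the 12p end and 11 on 18p, against 11 on the rest of both. Above the floor, in classes to 1.5 times, 1.5 to 2 times and at least 2 times, 12p end summits were deeper. Spindlin1 medians were 13, 15 and 18 fragments against 11, 13 and 16 on the rest of chromosome 12. C11orf84 medians were 14, 16 and 19 against 12, 13 and 16. On 18p the Spindlin1 medians were 12, 14 and 18 against 12, 14 and 16 on the rest of chromosome 18. For C11orf84 they were 12, 16 and 18 against 13, 15 and 17. The depth a call needed also moved with background. The shallowest Spindlin1 peaks had 6 fragments at the floor and 10 on raised background in both stretches, and for C11orf84 they had 7 at the floor and 9 and 10 on raised background. How far this requirement accounts for the deeper summits was not tested.

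The authors' fold was higher in the 12p end than on the rest of its chromosome, and lower on 18p. Its median was 6.14 for Spindlin1 in the 12p end (quartiles 5.24 to 7.2) and 5.64 on the rest of chromosome 12 (5.13 to 6.67), and 6.21 (5.25 to 7.39) and 5.85 (4.91 to 6.71) for C11orf84. The opposite end of chromosome 12 had the same Spindlin1 median fold as the 12p end, 6.14, at a median background at the floor, and a C11orf84 median of 5.89. On 18p it was 5.78 (4.95 to 6.72) against 6.16 (5.19 to 7.18) on the rest of chromosome 18 for Spindlin1, and 5.85 (4.91 to 6.84) against 5.96 (5.19 to 7.04) for C11orf84. The block from 0 to 4 Mb of 18p had the lowest medians, 5.28 and 5.33, on the highest background and at the deepest summits of the 6 blocks. The inner block had 6.10 and 6.09 at about the same depth. The opposite end of chromosome 18, which held most peaks of the rest, had 6.16 and 6.38. Fold divides by background, so it is tied to the measure that chose the stretches.

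**Figure D3:**
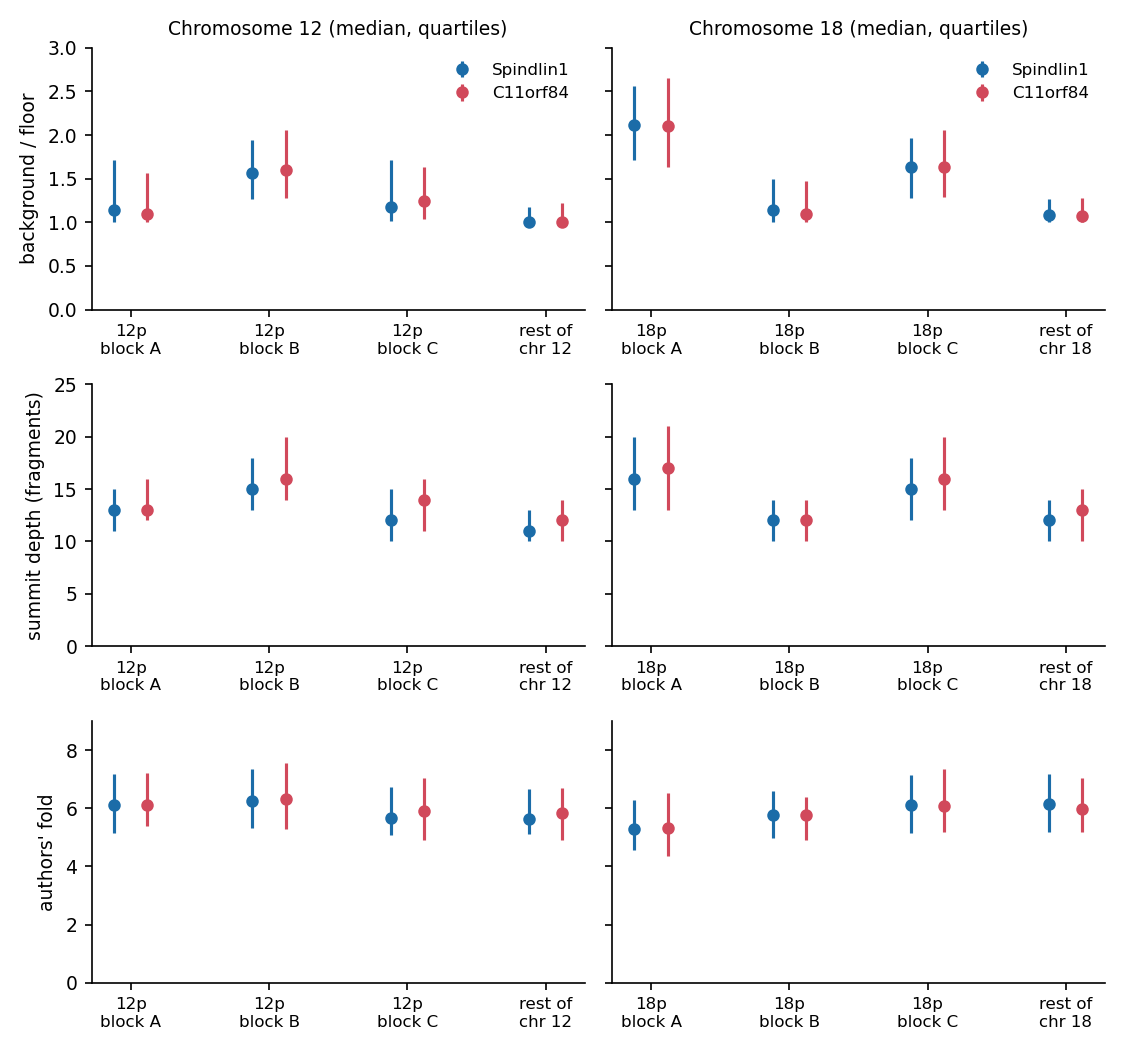
Background over the floor, summit depth in fragments and the authors' fold in the 3 blocks of the 12p end (A, 0 to 2 Mb; B, 2 to 7 Mb; C, 7 to 10 Mb), the 3 blocks of 18p (A, 0 to 4 Mb; B, 4 to 12 Mb; C, 12 Mb to the limit) and the rest of each chromosome, with medians as points and quartiles over peaks as bars. Background and depth are highest in block A of 18p, where the median fold, 5.28 for Spindlin1 and 5.33 for C11orf84, is lowest.

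Width differed little. The median was 227 bp for Spindlin1 and 247 bp for C11orf84 in the 12p end and 226 and 247 bp on the rest of chromosome 12. It was 216 and 225 bp on 18p, against 220 and 237 bp on the rest of chromosome 18. The widest peaks of the 12p end were 1 region in both lists, 1959 bp for Spindlin1 (1929789 to 1931747) and 2391 bp for C11orf84 (1929359 to 1931749). The widest of 18p also overlapped, 2080 bp for Spindlin1 (12086326 to 12088405) and 2072 bp for C11orf84 (12087063 to 12089134).

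Overlap of the lists was more frequent in the 12p end than on the rest of chromosome 12. An overlap of 1 bp or more with C11orf84 was found for 1292 Spindlin1 peaks of the 12p end (77.8%, 75.7 to 79.8) and 68.5% (67.3 to 69.7) on the rest of the chromosome, where the whole list had 69.7%. Such an overlap with Spindlin1 was found for 1229 C11orf84 peaks of the 12p end (70.3%, 68.1 to 72.5) and 56.3% (55.1 to 57.5) on the rest, where the whole list had 57.6%. The opposite end of chromosome 12, at the floor, had 76.6% (74.6 to 78.5) for Spindlin1, within the interval of the 12p end, and 61.9% (59.8 to 64.0) for C11orf84, below it. Within the 12p end the shares were highest in the 2 to 7 Mb block, 81.7% and 73.0%, and lowest from 7 to 10 Mb, 62.3% and 58.8%. Overlap also has more room by chance in the 12p end, since C11orf84 peaks covered 5.85% of its bases and 1.87% on the rest of chromosome 12, and Spindlin1 peaks 4.92% and 1.42%. The part of crowding in these shares was not tested.

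On 18p the shares did not stand above the rest of the chromosome taken as a whole. Overlap was found for 689 Spindlin1 peaks (69.4%, 66.4 to 72.2), against 71.4% (69.3 to 73.4) on the rest of chromosome 18, and for 656 C11orf84 peaks (59.2%, 56.2 to 62.1), against 57.8% (55.7 to 59.9). Both are near the 69.7% and 57.6% of the whole lists. The opposite end of chromosome 18 had higher shares, 77.7% (75.5 to 79.9) for Spindlin1 and 66.1% (63.7 to 68.4) for C11orf84. It held 1433 of the 1907 Spindlin1 peaks of the rest and 1114 of the 1362 shared ones. For C11orf84 it held 1598 of the 2242 peaks and 1056 of the 1296 shared ones. Outside that end, shares on the rest of chromosome 18 were thus below those of 18p. The blocks differed from each other. In the inner block 76.1% of Spindlin1 and 69.8% of C11orf84 peaks were shared, from 0 to 4 Mb 66.2% and 57.0%, and from 4 to 12 Mb 62.8% and 49.3%. In the window from 3 to 4 Mb, that of the highest background, the lists shared 61.8% of 76 Spindlin1 peaks and 50% of 82 C11orf84 peaks.

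At equal summit depth the Spindlin1 shares of the 12p end and of the rest of chromosome 12 lay close together from 10 to 19 fragments. Peaks of 10 to 12 fragments were shared in 66.2% (61.2 to 70.8) in the 12p end and 67.0% (65.1 to 68.9) on the rest of chromosome 12, those of 13 to 15 fragments in 78.8% and 78.5%, and those of 16 to 19 fragments in 87.5% and 87.4%. Under 10 fragments the 12p end had 47.7% (39.0 to 56.6) and the rest 53.5% (50.8 to 56.2), and at 20 or more 95.4% (91.7 to 97.8) and 89.0% (82.2 to 93.8). C11orf84 peaks were shared in 54.3% (48.6 to 59.9) in the 12p end and 52.7% (50.8 to 54.6) on the rest at 10 to 12 fragments, 67.9% (63.5 to 72.1) and 62.4% (60.1 to 64.7) at 13 to 15, and 78.7% (74.7 to 82.2) and 73.7% (70.5 to 76.7) at 16 to 19. Under 10 fragments they were shared in 28.6% (19.6 to 39.0) and 37.5% (34.7 to 40.4), and at 20 or more in 86.2% and 86.5%. Equal depth was not equal fold, with Spindlin1 medians at 13 to 15 fragments of 6.27 in the 12p end and 7.18 on the rest. The depth classes were also filled differently. Peaks under 10 fragments made up 7.95% of the Spindlin1 peaks in the 12p end and 23.8% on the rest of chromosome 12.

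At equal depth 18p had shares below the rest of its chromosome in all 5 depth classes of both lists. At 13 to 15 fragments 68.9% (62.8 to 74.5) of Spindlin1 peaks were shared on 18p and 79.0% (75.3 to 82.3) on the rest of chromosome 18, and under 10 fragments 41.1% (31.7 to 51.0) and 55.9% (50.2 to 61.5). For C11orf84 the widest gap was at 16 to 19 fragments, 66.7% (60.3 to 72.6) and 75.1% (70.3 to 79.4). Apart from the Spindlin1 class of 13 to 15 fragments, the intervals of 18p and the rest overlap. Of the rest, 1433 of 1907 Spindlin1 and 1598 of 2242 C11orf84 peaks lay in the opposite end, which was more crowded than 18p. The depth classes were not split by that end, and the part of crowding in these gaps was not tested. By background, Spindlin1 peaks at the floor were shared in 61.9% (54.1 to 69.3) on 18p and 68.7% (65.5 to 71.8) on the rest, and in the 12p end in 74.1% (67.5 to 80.0), against 67.8% (66.1 to 69.4) on the rest of chromosome 12. C11orf84 peaks at the floor were shared in 69.1% (62.0 to 75.6) in the 12p end and 54.9% (53.3 to 56.6) on the rest of chromosome 12. On 18p they were shared in 49.5% (42.5 to 56.6), against 52.7% (49.6 to 55.7) on the rest of chromosome 18. At 1.5 to 2 times the floor 18p stood above the rest, with 72.6% against 69.7% for Spindlin1 and 68.2% against 66.7% for C11orf84. In the remaining background classes 18p stood below the rest in both lists.

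**Figure D4:**
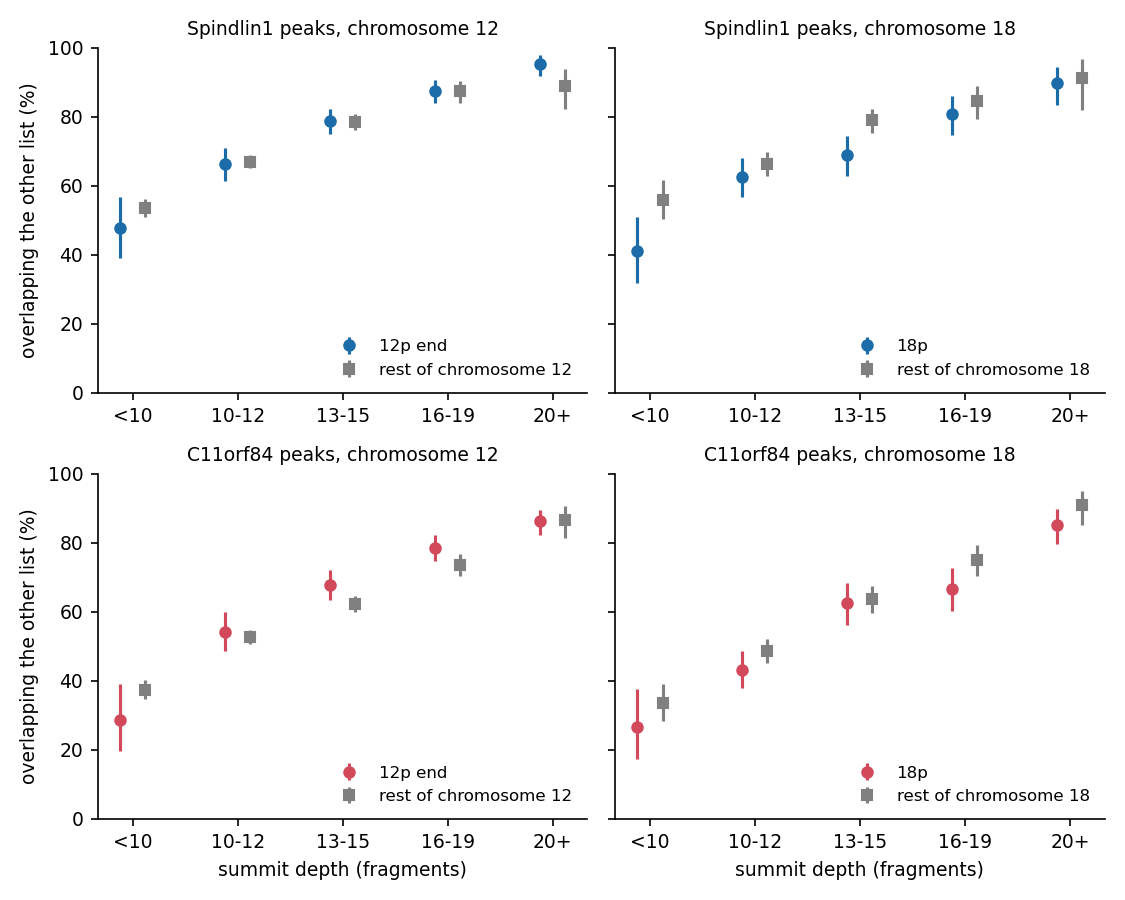
Percentage of peaks overlapping the other list by 1 bp or more, in classes of summit depth, for the 12p end or 18p (coloured circles) and the rest of the same chromosome (grey squares), with exact 95% intervals as bars. Shares climb with depth in all 4 panels, from 47.7% under 10 fragments to 95.4% at 20 or more for Spindlin1 in the 12p end, where the classes from 10 to 19 fragments lie on those of the rest of chromosome 12.

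Where peaks of the lists coincided, their summits lay close together. The median distance from the summit of a shared Spindlin1 peak to the nearest C11orf84 summit was 37 bp in the 12p end and 64 bp on the rest of chromosome 12, and 36 bp on 18p and 48 bp on the rest of chromosome 18. On chromosome 12 the distances were shorter at equal depth in most classes, with 37 bp against 57 bp at 13 to 15 fragments and 32.5 bp against 51.5 bp at 16 to 19, but 85 bp against 88 bp under 10 and 34.5 bp against 32 bp at 20 or more. The 1201 pairs of the 12p end that were each other's largest overlap had median depths of 15 and 16 fragments in the Spindlin1 and C11orf84 lists, and the ratio of C11orf84 to Spindlin1 fragments within a pair had a median of 1.08 (quartiles 0.929 to 1.29). The 636 pairs of 18p gave the same median ratio of 1.08 (0.928 to 1.29), and the rest of the chromosomes gave 1.08 and 1.09.

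The 3 Spindlin1 peaks of highest fold in the 12p end lay between 2 and 4 Mb. The 2 windows there held 301 and 371 of its 1661 Spindlin1 peaks. The highest, at chromosome 12 (2548318 to 2548862), had a fold of 14.3 at 28 fragments on 1.08 times the floor, and it ranked 18 in its list. C11orf84 reached a fold of 9.91 at 20 fragments there. The next Spindlin1 peak (2045926 to 2046198) had a fold of 14.1 at 36 fragments, the deepest Spindlin1 summit of the 12p end, and C11orf84 had 10.7 at 34 fragments there. The third (3123718 to 3124215) stood at the floor, with folds of 12.8 for Spindlin1 and 10.8 for C11orf84. A region at 2023073 to 2023338 was among the deepest of both lists, with 31 Spindlin1 and 33 C11orf84 fragments and folds of 12.7 and 12.8.

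The leading C11orf84 peaks of the 12p end were other regions. The highest was at chromosome 12 (719566 to 719816), with a fold of 14 at 30 fragments, where Spindlin1 had a fold of 8.03 at 16 fragments. At 6425356 to 6425735 C11orf84 had 13.3 at 29 fragments and Spindlin1 5.62 at 11 fragments. At 2659796 to 2660146 C11orf84 had 13.1 at 28 fragments and Spindlin1 6.79 at 14 fragments. Peaks picked as the highest of 1 list tend to be lower in the other, so these gaps are a description of the picked peaks.

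On 18p the highest Spindlin1 fold and the second highest C11orf84 fold were the same region, chromosome 18 (13911064 to 13911330 for Spindlin1 and 13911082 to 13911331 for C11orf84), with 12.8 at 28 fragments and 12.6 at 29 fragments on 1.33 times the floor in both. The next Spindlin1 peaks had folds of 12.1 (13640580 to 13640852) and 11.3 (904456 to 905882, 1427 bp wide), and C11orf84 had 9.61 and 10.4 there. The highest C11orf84 fold of 18p, 13.7 at 27 fragments over the floor, was at 12432195 to 12432481, where Spindlin1 had 7.70 at 14 fragments. The third C11orf84 peak (13162701 to 13163469) had a fold of 11.7, and Spindlin1 had 10.9 there. Of these 5 regions, 4 lay in the inner block, which held 436 of the 993 Spindlin1 and 453 of the 1108 C11orf84 peaks of 18p.

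Peaks more than 5 kb away from the other list were scarce in the 12p end. They numbered 68 for Spindlin1 (4.09%) and 88 for C11orf84 (5.04%), against 9.52% and 12.9% on the rest of chromosome 12, where the whole lists had 8.36% and 10.9%. They were about as scarce in the opposite end of chromosome 12, with 2.85% and 5.66%. On 18p they numbered 109 (11%) and 162 (14.6%), against 8.02% and 14.2% on the rest of chromosome 18. The block from 4 to 12 Mb had 16.3% and 25% of such peaks, and the inner block had 3.90% and 2.87%. The strongest in the 12p end were a Spindlin1 peak with a fold of 8.21 (9078875 to 9079070) and a C11orf84 peak with a fold of 10.4 at 22 fragments (5647058 to 5647308). On 18p they were a Spindlin1 peak with a fold of 9.15 at 23 fragments (2279486 to 2279688) and a C11orf84 peak with a fold of 8.77 at 20 fragments (7907369 to 7907605). Where the partner has no peak, none was called at that depth and background, which does not measure whether the protein was absent.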

How the data were processed

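ChIP-seq peak lists of Spindlin1 and C11orf84 in U2OS were used, 1 library each; no Input file was used. Per the submitters' processing notes, alignment was to hg19 with Bowtie 1.2.2. No source used here names the peak caller, its threshold or its control. Per peak, the deposited lists give the authors' fold (a ratio of summit to local background), −log10 p-value and −log10 q-value. The authors' score equals 10 times the −log10 q-value without its decimals (100% of peaks) and served no purpose here.

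A whole number k of fragments and a background λ were found for each peak from the fold, (k + 1)/(λ + 1), and the p-value, the Poisson probability of more than k. The largest error in −log10 p was 0.000174 for Spindlin1 and 0.000148 for C11orf84. For 16 Spindlin1 and 0 C11orf84 peaks the next best k came within 0.001. A background within 0.1% of the lowest counts as the floor. The recovery and its code were tested on simulated data made with the same formulas. That checks the inversion, not whether the unnamed peak caller used these formulas. Total read numbers are unknown; the precision of a share is set by the number of peaks, given as exact Clopper-Pearson intervals, and that of a density by exact Poisson intervals. A density leaves out stretches of 1 Mb or more with no peak of either list.

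The stretches, lists and tests were chosen with earlier results of these data known, and the blocks after the background along the arms had been seen. Regions named are, per list and stretch, the 3 peaks of highest fold, the 3 deepest, the widest and the 2 of highest fold with no peak of the other list within 5 kb, of which the text gives the leading ones. Alternatives were a −log10 q of at least 10, other overlap rules (50% of both intervals, summits at most 200 bp apart), a raised background from 1.5 times the floor, the outermost 5 Mb and other ways of taking length and median. Genes and base sequences of peaks were not analysed here, as no genome or annotation of hg19 was used. Computation was in Python 3.11.15 with pandas 2.3.3, NumPy 2.4.6 and SciPy 1.17.1, and figures were drawn with matplotlib 3.10.9.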

Additional observations from a re-analysis of the deposited data

Results flagged for a closer look

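The median fold moved in opposite directions on the 2 chromosomes, in both lists. In the 12p end minus the rest of chromosome 12 it differed by 0.494 for Spindlin1 and 0.354 for C11orf84, and on 18p minus the rest of chromosome 18 by -0.381 and -0.109. The opposite end of chromosome 12 had the same Spindlin1 median fold as the 12p end, 6.14, and a C11orf84 median of 5.89, against 6.21 in the 12p end. That of chromosome 18 had 6.16 and 6.38. It held 1433 of the 1907 Spindlin1 and 1598 of the 2242 C11orf84 peaks of the rest. Its part in the lower values of 18p was not tested. The difference between the chromosomes was not tested, since each list is 1 library. Median background beside it was 1.42 and 1.47 times the floor in the 12p end and 1.57 and 1.51 on 18p, and its part in the difference was not tested.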

How the results depend on the processing

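No paired analysis was possible because each antibody has 1 library and no replicate. In what follows, 4 values are given in the order Spindlin1 and C11orf84 in the 12p end, then Spindlin1 and C11orf84 on 18p. With a −log10 q of at least 10, peak numbers were 389, 566, 184 and 262. Density ratios to the rest of the chromosome were then 9.73, 8.11, 2.13 and 1.91, median folds 8.21, 8.11, 7.95 and 7.81, summit depths 19, 20, 20 and 21 fragments, and widths 271, 328.5, 240 and 292 bp. On 18p the median background was then 1.66 and 1.64 times the floor and the raised share 28.8% and 28.6%, and the raised share of Spindlin1 in the 12p end was 17.2%. In the outermost 5 Mb there were 1069, 1125, 232 and 241 peaks, and the 18p background was 2.03 and 2.04 times the floor. As the median of window medians it was 1.32 and 1.26. With peak-free stretches kept in the length, density ratios were 3.65, 3.33, 2.30 and 2.18. With raised taken from 1.5 times the floor, shares were 45.3%, 47.4%, 54.3% and 51.1%. Overlap was 62.1%, 59.1%, 55.6% and 49.8% at 50% of both intervals, 65.3%, 61.9%, 60.1% and 54.2% with summits at most 200 bp apart, 94.3%, 88.3%, 90.2% and 83.6% for peaks with a −log10 q of at least 10 against any peak, and 58.1%, 39.2%, 53.8% and 36.6% with that limit in both lists. Other than fewer peaks or another definition in each of these settings, the cause was not tested. Both of the next settings were chosen after seeing the data. Leaving out the outermost 250 kb of 18p moved each 18p value by less than its counting interval, and the number of peaks by less than 1.5 times. With the 12p limit at 14 Mb, for which background and the raised share alone were recomputed, they were 1.46 and 1.48 times the floor and 21.3% and 23.1%. Of the 84 values recomputed, 27 stayed within the counting interval of the value reported, or within 1.5 times the number of peaks. Of these 27, 16 came from leaving out the outermost 250 kb and 4 from the 12p limit at 14 Mb. Most of the values that stayed thus belong to the settings chosen after seeing the data, and most values under the planned settings moved. Depth limits the lists: control coverage below the floor cannot be read.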
